A study of Homo sapiens with 2 samples.

Results

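FMNL2, DAAM1 and DIAPH3 are 3 formin genes, and the crosslink sites of hnRNPM in their RNA are described here. A site was counted for a gene when its middle lay between the gene's borders on GRCh37 and on the strand of the gene, and 178 of the 54373 sites of the deposited list met this rule. FMNL2 held 115 of them, DAAM1 8 and DIAPH3 55. The genes were selected on the number and position of their sites in this list, FMNL2 as one of its densest loci. The counts, densities and positions below therefore describe the choice, and no test was run on them.

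The sites came from iCLIP of HMLE cells, an established line of immortalised human breast epithelial cells. Its 1 group held 2 libraries, biological replicates 1 and 2 by their labels. Both were of WT cells (wild type) given DMSO, ultraviolet-crosslinked, and the protein was precipitated with an anti-hnRNPM antibody. The deposited list gave 1 height per site and no value per library, so the spread between cultures and the depth of each library are unknown here. RNA levels were not measured, so more sites or taller sites in a gene and more RNA of that gene cannot be told apart.

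Formins are large proteins that start and lengthen unbranched actin filaments, and many are held inactive until a signal releases them. FMNL2 is a formin of the cell edge that acts downstream of CDC42 in lamellipodia and filopodia. DAAM1 links Dishevelled, in Wnt signalling, to the actin skeleton. DIAPH3, also known as mDia2, works in filopodia and in the division of the cell. hnRNPM is an RNA-binding protein of the nucleus that takes part in the choice of splice sites. In iCLIP the reverse transcriptase tends to halt where the protein was crosslinked to the RNA, and many such halts at 1 place mark a site. The height of a site is the whole number the authors gave it, read here as the number of halts. A second number from the authors was read as the expected height. Part of each site name was read as its tag cluster, a stretch of joined reads. The expected height has 1 value for each tag cluster.

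All 3 genes are long and almost wholly intron. The borders used were chromosome 2 from 153191751 to 153506348 on the plus strand for FMNL2 (314598 nt), chromosome 14 from 59655369 to 59836523 on the plus strand for DAAM1 (181155 nt), and chromosome 13 from 60239717 to 60738119 on the minus strand for DIAPH3 (498403 nt). GENCODE 29, an annotation on GRCh38, gave FMNL2 the same length, DIAPH3 2 nt more and DAAM1 1605 nt more. In its longest coding transcripts, introns made up 98.2% of the span of FMNL2 (26 exons), 97.7% of DAAM1 (25 exons) and 99.0% of DIAPH3 (28 exons). The first intron was the longest one in FMNL2, at 186.0 kb, and in DAAM1, at 74.7 kb. In DIAPH3 the first intron had 30.6 kb and the longest, intron 27, had 107.0 kb. These are lengths on GRCh38: no annotation of GRCh37 was used, and no site was placed in an exon or an intron.

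FMNL2 carried the most sites for its length. It had 0.366 sites per kb (exact Poisson 95% interval 0.302 to 0.439), or 1 site in 2.74 kb. DIAPH3 had 0.11 sites per kb (0.0831 to 0.144), or 1 site in 9.06 kb, and DAAM1 had 0.0442 (0.0191 to 0.087), or 1 site in 22.6 kb. The intervals cover counting error alone and treat sites as independent, although sites of 1 transcript and of 1 tag cluster are not. FMNL2 had 3.31 times the density of DIAPH3 and 8.28 times that of DAAM1. The order did not follow length, since DIAPH3 is the longest of the 3. In summed height the genes stood further apart: FMNL2 had 8.27 units per kb, DIAPH3 1.62 and DAAM1 0.414.

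The density of each gene was set beside windows of its own length, laid end to end along each strand of each chromosome. Among the 5404 windows of FMNL2's length that held a site, the median was 6 sites, the upper quartile 13, and 1 window held as many sites as FMNL2 or more. When the windows were shifted by 50% of their length, none of 5454 did, and the fullest held 112 sites. For DIAPH3, 94 of 4523 windows (2.08%) held at least its 55 sites. For DAAM1, 2325 of 6655 windows (34.9%) held at least its 8 sites, against a median of 5. DAAM1 thus lay in the ordinary range of windows with a site, while FMNL2 lay at its upper end. The windows take no account of genes, and a dense gene can be split between a pair of them.

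**Figure D1:**
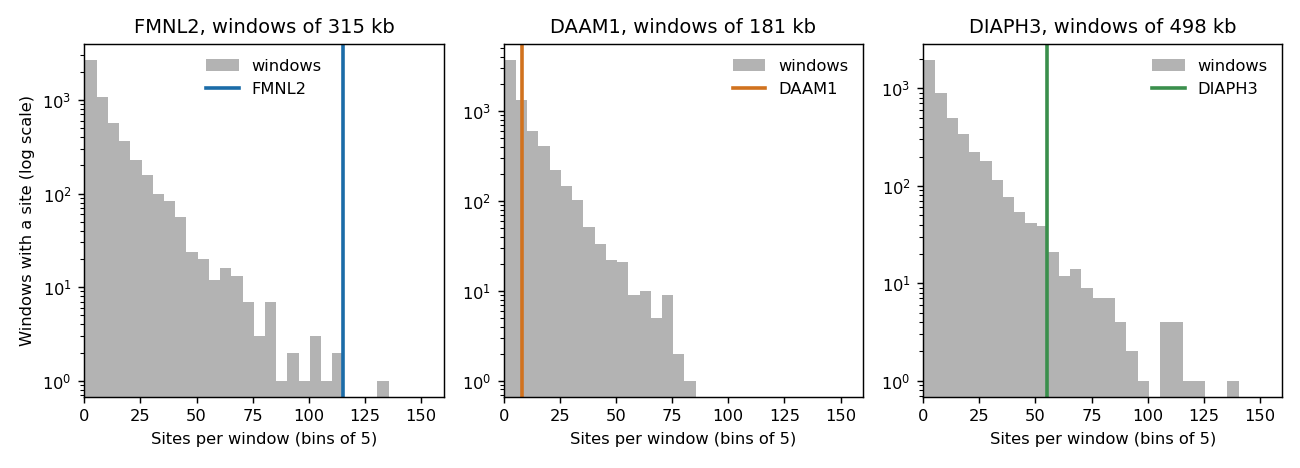
Number of sites in windows of each gene's length (grey bars, x axis in sites per window, y axis the number of windows with a site on a log scale), with the gene's own number of sites as a coloured line. FMNL2 at 115 sites stands near the end of its distribution, DIAPH3 at 55 sites in the upper tail, and DAAM1 at 8 sites among the common windows.

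The sites of FMNL2 were gathered near its start. The first site lay 1.72 kb past the start of the gene, and the first 100 kb, 31.8% of its length, held 85 of the 115 sites (73.9%). That is 0.85 sites per kb, against 0.14 in the rest of the gene. In steps of 10 kb from the start, the first 100 kb held 4, 10, 8, 13, 10, 7, 14, 8, 5 and 6 sites. No step of 10 kb further on held more than 4 sites. The fullest step, from 60 to 70 kb, held 14. The 100-kb limit was chosen after the positions were seen. Upstream of the midpoint of the gene lay 93 of 115 sites (80.9%, exact binomial interval 72.5 to 87.6%), and the median position was 64.3 kb, or 20.5% of the length. The last site lay at 288.22 kb, which left 26.4 kb before the end of the gene without a site. The longest gap, 27.8 kb, ran from 172.52 to 200.37 kb.

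DIAPH3 was covered more evenly, with a sparse 3′ part. Its 55 sites ran from 2.73 to 456.25 kb past the start, and 39 of them lay upstream of the midpoint of the gene (70.9%, exact binomial interval 57.1 to 82.4%). The first 100 kb held 16 sites, the next 100 kb 14 and the following 100 kb 17. The remaining 198 kb, 39.8% of the gene, held 8 sites. In 3 parts of equal length, from the start of the gene, DIAPH3 had 25, 24 and 6 sites. FMNL2 had 85, 15 and 15, so the drop came after the first part in FMNL2 and after the second in DIAPH3. The fullest steps of 10 kb in DIAPH3, from 160 to 170 kb and from 240 to 250 kb, held 5 sites each, and 24 of its 50 steps were empty, against 7 of 32 in FMNL2. The longest gap, 61.0 kb, ran from 363.19 to 424.15 kb.

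DAAM1 held 1 small group of sites and 3 single ones. The group had 5 sites between 45 and 48 kb past the start, all in the 10-kb step from 40 to 50 kb, the fullest of the gene. A tag cluster of 2 sites, from 59701418 to 59701494 on chromosome 14, was the fullest in DAAM1. From 5′ to 3′ the heights of the 5 sites of the group were 7, 8, 13, 10 and 8. The single sites lay at 3.98 kb with a height of 6, at 31.32 kb with a height of 12, and at 107.76 kb with a height of 11. The longest gap, 60.2 kb, lay between the group and the last of these, and the last 73.4 kb of the gene held no site. Of the 8 sites, 7 lay upstream of the midpoint (87.5%), and with so few sites the exact binomial interval ran from 47.3 to 99.7%. In each of the 3 genes more sites lay upstream of the midpoint than downstream of it. These intervals too cover counting error alone, and sites of 1 transcript are not independent.

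**Figure D2:**
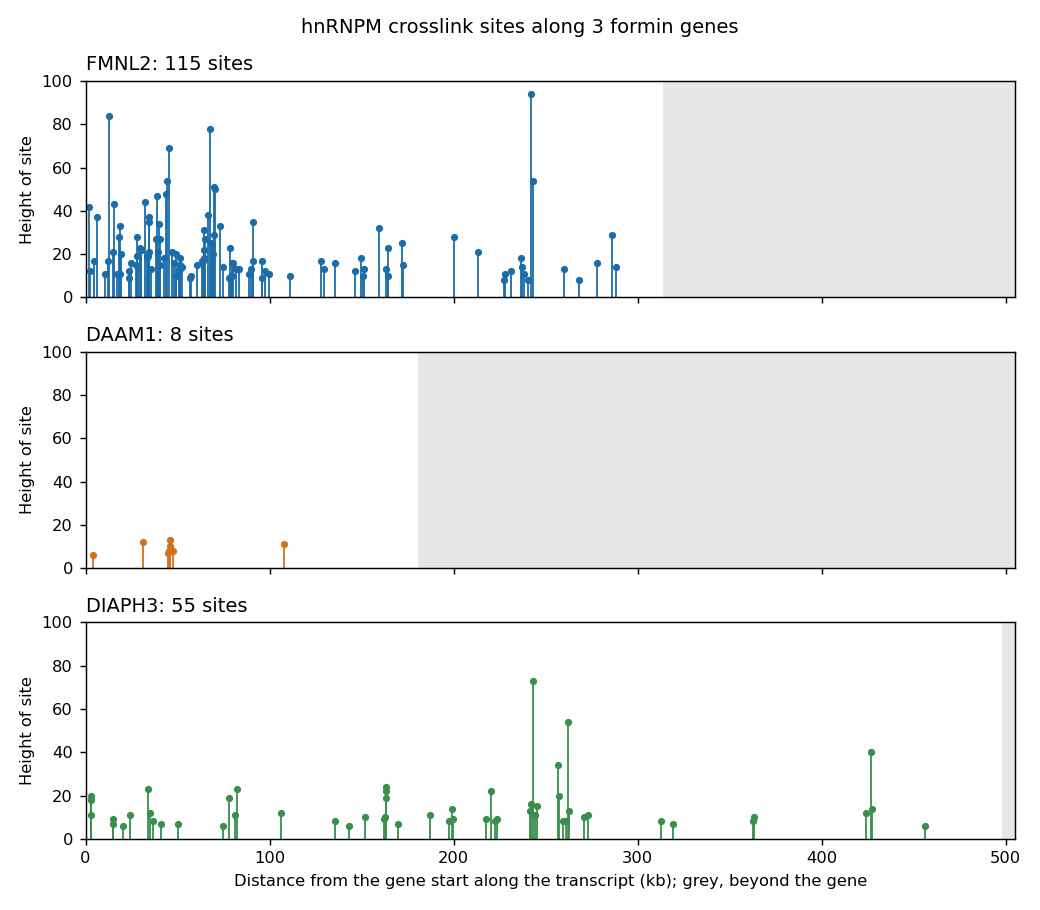
Every site of the 3 genes by its distance from the gene start (x axis, kb along the transcript, grey beyond the gene end) and its height (y axis). The sites of FMNL2 crowd into the first 100 kb, those of DIAPH3 thin out after 300 kb, and DAAM1 has 5 of its 8 sites between 45 and 48 kb.

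**Figure D3:**
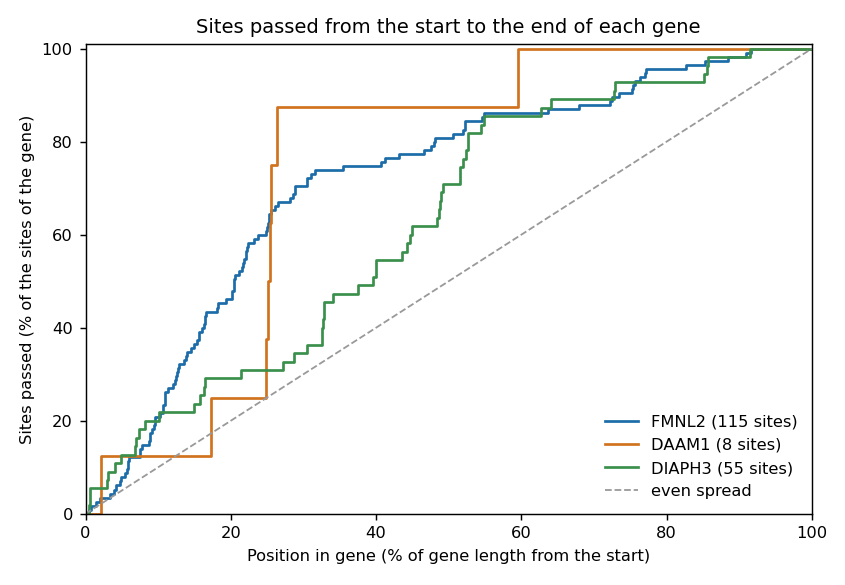
Share of each gene's sites passed (y axis, %) on the way from its start to its end (x axis, % of gene length), with a dashed line for an even spread. FMNL2 reaches 73.9% of its sites in the first of 3 equal parts of its length, and DIAPH3 45.5%.

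A weight toward the 5′ side was frequent in long runs of sites elsewhere in the list too. A run was taken as consecutive sites that all lay on 1 strand, each within 50 kb of the next. All 115 sites of FMNL2 formed 1 run, from its first to its last site, with no other site in it, and it was the fifth of 1632 runs of at least 10 sites by number of sites. In this run 77.4% of sites lay upstream of its midpoint, a higher share than in 87.8% of the 1632 runs, whose median was 57.1% (quartiles 41.7 and 70.0%). Among the 128 runs of at least 50 sites the median was 62.8%, and 15, FMNL2 included, had a share as high as that of FMNL2 or higher. The main run of DIAPH3 held 51 of its sites, and 26 of these lay upstream of the midpoint of the run, a higher share than in 40.3% of the runs. This run ended at 363.19 kb, before the longest gap of the gene. The sites of DAAM1 fell into a run of 7 and a single site, too few for this comparison. The genes were selected with the positions of their sites known, so the shares of FMNL2 and DIAPH3 among the runs describe the choice.

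The sites of FMNL2 lay close together, and short gaps go with the density for which it was selected. The median gap between neighbours was 997 nt in FMNL2 and 2896 nt in DIAPH3. Of 114 gaps in FMNL2, 57 were under 1 kb, and of 54 gaps in DIAPH3, 15 were. Within the first 100 kb of FMNL2 the median gap was 745 nt. FMNL2's run was not among the tightest of its kind: 35 of the 128 runs of at least 50 sites, its own included, had a median gap as small or smaller. For the main run of DIAPH3, 126 did, that run included. FMNL2 also held 11 pairs of neighbours 26 to 50 nt apart, or 9.57 per 100 sites, where the whole list had 5.37 per 100 sites. In 6 of these pairs the upstream site was the taller one, in 4 the downstream site, and 1 pair was equal. So few pairs give no direction for FMNL2. Of the 2919 such pairs in the whole list, the upstream site was taller in 1729 and the downstream site in 881, and 309 were equal. DIAPH3 had no such pair among its 55 sites, its smallest gap being 61 nt. DAAM1 had none either, and its closest pair, 56 nt apart, had heights of 13 upstream and 10 downstream.

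FMNL2 sites were often joined in the authors' tag clusters. Its 115 sites fell into 59 clusters, or 1.95 sites per cluster, against 1.35 in the whole list. Sites that shared a cluster with another made up 70.4% of those in FMNL2 and 52.7% in DIAPH3, against 43.4% of the list. In DAAM1 2 of 8 sites did. In FMNL2 8 of 59 clusters held at least 4 sites (13.6%), as did 1 of 38 in DIAPH3 (2.63%) and none of 7 in DAAM1, against 2.73% of clusters in the list. The fullest cluster of FMNL2 had 8 sites, from 153239917 to 153243928 on chromosome 2, with heights of 10 to 20. Next came a pair of clusters with 7 sites each, from 153224257 to 153227518 with heights of 13 to 44, and from 153254999 to 153258207 with heights of 17 to 38. All 3 lay in the first 100 kb. The fullest cluster of DIAPH3 had 5 sites, from 60574630 to 60575841 on chromosome 13, with heights of 9 to 24. Counted by clusters, FMNL2 had the highest density of the 3 genes, with 0.188 clusters per kb, 0.0762 in DIAPH3 and 0.0386 in DAAM1. This count rests on the same sites, for whose density FMNL2 was selected.

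FMNL2 sites were taller than most sites of the list. Heights in FMNL2 ran from 8 to 94 with a median of 17 (exact interval of the median 16 to 20), against a median of 11 and quartiles of 8 and 17 in the whole list. Of its sites, 56 exceeded the list's upper quartile (48.7%), against 24.3% of the list. Heights in DIAPH3 ran from 6 to 73 with a median of 11 (9 to 13), and 14 of 55 sites exceeded the upper quartile (25.5%). Heights in DAAM1 ran from 6 to 13 with a median of 9 (6 to 13), and none of its 8 sites exceeded the quartile. The intervals of the medians also treat sites as independent, which sites of 1 transcript and of 1 tag cluster are not. DIAPH3 was thus close to the list in height, and the 8 sites of DAAM1 were low. The median heights of the runs of sites had themselves a median of 14 over the 128 runs of at least 50 sites and 12 over the 1632 of at least 10. Of the 1632 runs, 86.8% had a lower median height than the run of FMNL2, and 35.1% a lower one than the main run of DIAPH3. Height rose with expected height, with a Spearman's rank correlation of 0.793 in the list, 0.689 in FMNL2 and 0.781 in DIAPH3. No site had a P above 0.000999 in the authors' site call. An FMNL2 site with a height of 10 and an expected height of 0.87 was close to that limit, at 0.000809. Low sites with a high expected height may thus be missing, and heights are not fully comparable between genes.

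The ratio of height to expected height gave another order. Its median was 20.5 in FMNL2, 26.1 in DIAPH3 and 25.1 in DAAM1, against 23.7 in the list. The medians of the expected height itself were 0.87 in FMNL2, 0.53 in DIAPH3 and 0.315 in DAAM1, against 0.51 in the list. FMNL2 was therefore above the list in height and in expected height, and below it in their ratio. The quartiles of the ratio overlapped widely, at 15.8 and 26.6 in FMNL2, 17.3 and 33.6 in DIAPH3, and 20.5 and 31.5 in DAAM1. The expected height follows the tag cluster, which holds the sites themselves, so it is not a separate measure of RNA abundance. The limit on P bears on the ratio too. In the authors' site call, a DAAM1 site of height 6 over an expected 0.23, a ratio of 26.1, had a P of 0.000903. An FMNL2 site of height 18 over an expected 3.01, a ratio of 5.98, had a P of 9.41e-05. Low ratios at a low expected height may thus be missing, and ratios are not fully comparable between genes.

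**Figure D4:**
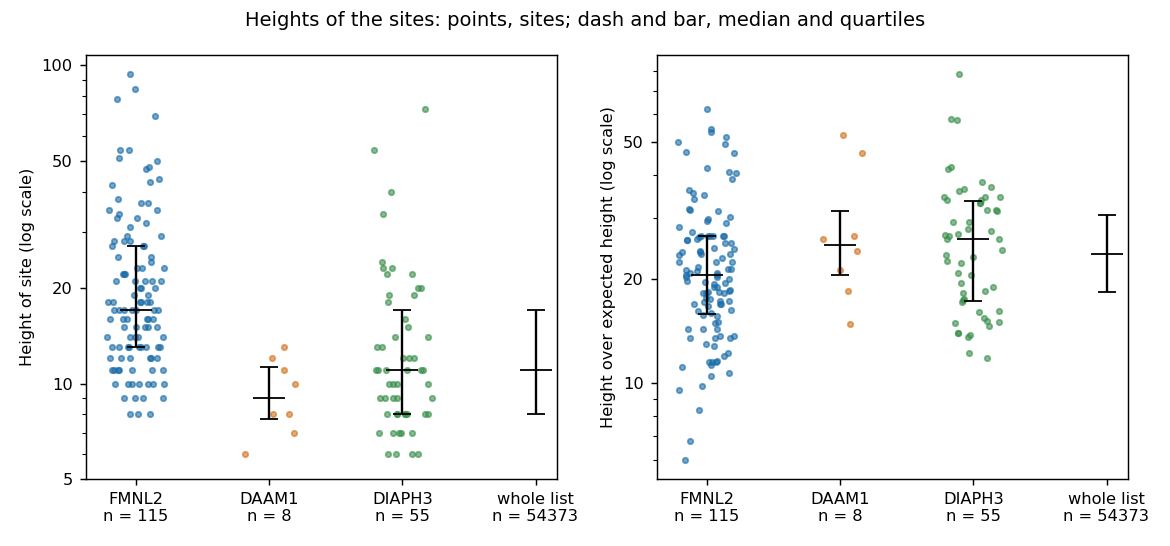
Heights of the sites (left, log scale) and height over expected height (right, log scale) in the 3 genes, 1 point per site, with the median and quartiles of each gene and of the whole list as black bars. FMNL2 has the highest median height, at 17, and the lowest median ratio, at 20.5.

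Height and density did not change alike along FMNL2. The 85 sites of the first 100 kb had a median height of 18 and a median expected height of 1.05. The 30 sites of the rest had medians of 14 and 0.53. The ratio of height to expected height ran the other way, with a median of 18.6 in the first 100 kb and 25.8 in the rest. Low ratios at a low expected height may be missing from the list, so these medians of the ratio are not fully comparable. Density in the first 100 kb was 6.08 times that of the rest, while the median heights were 18 and 14. Across the 115 sites, which are not independent, Spearman's rank correlation between the distance from the start and the height was -0.253. Across the 55 sites of DIAPH3 it was 0.0867, where the tallest sites lay near the middle of the gene.

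The tallest FMNL2 site lay in its sparse part. It had a height of 94, at 242.2 kb past the start, on chromosome 2 from 153433939 to 153433959, and 99.6% of the list was at or below this height. It shared its tag cluster with 1 more site, of height 54, at 242.96 kb. The second tallest site had a height of 84, at 13.02 kb, from 153204760 to 153204780. The third had a height of 78, at 67.75 kb, from 153259496 to 153259516. In all, 8 sites of FMNL2 reached a height of 50 (6.96%), 6 of them between 13.02 and 70.57 kb, against 2.6% of sites in the list. The 3 tallest stood at 46.3, 54.5 and 46.7 times their expected heights, in the order given. The first site of the gene, at 1.72 kb, had a height of 42, and the last, at 288.22 kb, one of 14.

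In DIAPH3 the tallest sites lay near the middle of the gene. The tallest had a height of 73, at 243.31 kb past the start, on chromosome 13 from 60494800 to 60494820, and at 78.5 times its expected height it had the highest ratio of the 178 sites. The second had a height of 54, at 262.19 kb, from 60475923 to 60475943. Both belonged to a stretch from 240 to 280 kb with 13 sites, or 0.325 per kb. FMNL2 had 0.366 per kb over its whole length and 0.85 in its first 100 kb. The stretch of DIAPH3 was picked after the positions were seen. It held 35.5% of the summed height of DIAPH3 in 8.03% of the length of the gene. The third tallest site, with a height of 40, lay in the sparse 3′ part at 426.85 kb, from 60311257 to 60311277. The first site of the gene, at 2.73 kb, had a height of 20, and the last, at 456.25 kb, one of 6.

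The sites of each gene kept to its strand and its borders. No site on the other strand lay inside any of the 3 genes. DIAPH3 has 2 antisense RNA genes in RefSeq, DIAPH3-AS1 and DIAPH3-AS2, and no plus-strand site lay within the borders of DIAPH3. The nearest same-strand site upstream was 842 kb from the start of FMNL2, 644 kb from that of DAAM1 and 6255 kb from that of DIAPH3. Downstream, the nearest same-strand site was 72.2 kb past the end of FMNL2, 724 kb past that of DAAM1 and 7233 kb past that of DIAPH3. The exact borders therefore decided no count: widening them by 10 kb on both sides added no site to any of the genes. On its strand of chromosome 13, DIAPH3 held 6.56% of all sites. FMNL2 held 4.56% of the plus-strand sites of chromosome 2, and DAAM1 0.649% of those of chromosome 14.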

How the data were processed

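iCLIP of hnRNPM was deposited for 2 libraries of 1 group as 1 list of 21-nt sites, taken as pooled. The score of each site, its height, was deposited by the authors and equals the PH value in the site name; PH0 was read as the expected height. Coordinates are on GRCh37, as named in the submitters' processing notes. How reads were aligned and sites called is not given in the sources used here. Depth per library is unknown here.

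Gene borders came with the choice of genes. The genes, measures and lists were chosen with earlier results of these data known. Sites named in each gene were the 3 tallest, the first and last, the fullest 10-kb step, the longest gap and the fullest tag clusters. Positions are 1-based and distances run from the gene start to the middle of a site. No test was run, since the list has no value per library; binomial intervals are exact. The functions were tested on simulated data. Lengths of introns came from GENCODE 29 on GRCh38. Other formin genes, exons and site sequences were not analysed here, for want of a GRCh37 annotation and genome. The tools were scipy 1.17.1, pandas 2.3.3 and numpy 2.4.6 under Python 3.11.15, with figures drawn in matplotlib 3.10.9.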

Additional observations from a re-analysis of the deposited data

How the results depend on the processing

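Of 33 alternative values, 26 stayed within 1.5 times the reported count, within the 95% interval of the reported value or on the same side of the list median. These include all 9 shares of sites upstream of the midpoint and all values with borders widened by 10 kb. Values with widened borders could not change, since the nearest same-strand site outside any border was 72.2 kb away. The 26 thus include values fixed in advance, and the intervals treat sites as independent. Among sites at or above the list's median height, DAAM1 had 3 sites and DIAPH3 29, and the median height in DIAPH3 was 16, equal to that of the list so limited. Counted as tag clusters, FMNL2 had 59. With height divided by expected height, the side of the list's median (23.7) turned: FMNL2 had 20.5 and DAAM1 25.1, while DIAPH3, equal to the list in height, had 26.1. The limit on P in the site call leaves these ratios not fully comparable between genes, and the cause was not tested. With sites within 50 nt merged, FMNL2 had 104 sites, 79.8% of them upstream of the midpoint, and a median height of 17.5. DAAM1 and DIAPH3 had no sites that close together, so their values could not change. No paired analysis was possible because the deposited list does not separate the libraries. Leaving out either replicate was not possible for that reason. With depth unknown, how many low sites were missed cannot be stated.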

Other observations

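A group of sites on the opposite strand lay downstream of FMNL2. Within 100 kb of its end there were 16 minus-strand sites, from 153523778 to 153573212 on chromosome 2 (GRCh37), that is 17.4 to 66.9 kb past the end of the gene. Their heights ran from 7 to 63 with a median of 16, and they fell into 9 tag clusters. The last 26.4 kb of FMNL2 and the 17.4 kb past its end held no site of either strand. Around DAAM1 and DIAPH3 no site of either strand lay within 100 kb of the borders.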
